A study of Homo sapiens with 6 samples.

Results

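The genes of major histocompatibility complex (MHC) class I antigen presentation were compared between KYSE70, an established line of human esophageal squamous cell carcinoma in which NFE2L2 is mutated, and NRF2null-KYSE70, which was expanded from 1 KYSE70 clone whose NFE2L2 had been disrupted with CRISPR-Cas9. NRF2, a transcription factor, is the product of NFE2L2. As with the further gene lists below, the genes were picked by symbol with earlier results of these data known. They were HLA-B, HLA-C, HLA-E, HLA-F, B2M, TAP1, TAP2, TAPBP and NLRC5, that is, 9 of the 58884 genes in the table, and each symbol occurred in 1 row. Each line had 3 libraries of untreated cells grown in the same medium, so 6 libraries fell into 2 groups. The labels do not say whether the libraries of a line came from separate cultures, and all NRF2null-KYSE70 libraries came from 1 clone. The p-values therefore measure the spread between these libraries, and a difference is one between this clone and its parental line.

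A class I molecule is a heavy chain (HLA-B, HLA-C, HLA-E or HLA-F here) bound to β2-microglobulin, the product of B2M, and to a short peptide. The proteasome cuts cell proteins into peptides, TAP1 and TAP2 form the transporter that pumps them into the endoplasmic reticulum, and tapasin, the product of TAPBP, bridges the transporter to empty class I molecules. NLRC5 is the transactivator of class I genes, and interferon raises most of these genes. CD8 T cells read class I molecules on the cell surface, and loss of class I is a known route by which tumors escape them.

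Expression was measured by RNA-seq as normalized counts, that is, reads per gene divided by the size factor of the library. The libraries held 52072801 to 63975313 reads assigned to genes. The targeted gene, NFE2L2, fell to 61.4% of its level in KYSE70, or by 0.71 on the log2 scale (SE 0.049, limma adjusted p = 9.37e-08). The paper reports a frameshift, remaining transcript variants and a faint smaller NRF2 band, and states that NRF2 was not fully lost. The level of this RNA is therefore no measure of NRF2 protein. All 10 squamous epithelial markers were detected, with a summed normalized count of 357043 to 370070 in KYSE70 and 277997 to 297439 in NRF2null-KYSE70. KRT5 (209917 to 124640 normalized counts in the mean) made up most of the sum in KYSE70. Of the 10 markers 5 were lower, among them KRT5 and TP63 (to 52.7%), and 5 were higher, among them KRT6A (161%). These calls are at a limma adjusted p under 0.05, at which 28.3% of all tested genes were lower and 29.3% higher. Of 14 leukocyte, endothelial and fibroblast markers, 8 had 3 reads or fewer in every library, and MS4A1, COL1A2 and DCN had none. Their summed level was 1321 to 1485 in KYSE70 and 782 to 1090 in NRF2null-KYSE70, most of it COL1A1. COL1A1 fell to 45.0% of its KYSE70 level, whereas VWF, an endothelial marker, rose 2.48-fold (limma adjusted p = 4.42e-05). PTPRC, a leukocyte marker, had 1 read in the KYSE70 libraries together and 125 in the NRF2null-KYSE70 libraries, at least 15.3-fold higher. The part of these markers in the results was not tested. In bulk libraries, fewer cells with a transcript and less of it per cell cannot be told apart.

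Transcripts for peptide transport and for NLRC5 were lower in NRF2null-KYSE70, with NLRC5 at 38.7%, TAP2 at 52.1% and TAP1 at 53.8% of the KYSE70 level. The heavy chain genes moved in different directions, HLA-C down and HLA-E up, whereas the differences of HLA-B, B2M and TAPBP did not pass the test. A gene was tested when its mean over the 6 libraries was at least 10 normalized counts, which 8 of the 9 genes reached. Each fold change divides NRF2null-KYSE70 by KYSE70, was taken on the log2(normalized count + 1) scale and was tested with limma over 15994 genes with Benjamini-Hochberg adjustment. At an adjusted p under 0.05, 4 of the 8 were lower (HLA-C, TAP1, TAP2 and NLRC5) and 1 was higher (HLA-E). Over all tested genes, 57.6% had an adjusted p under 0.05, 28.3% lower and 29.3% higher, so a count of 5 of 8 was near the background and was no result about these genes. NLRC5 alone had in addition a log2 fold change beyond 1 in size, as had 14.7% of all tested genes (7.43% lower and 7.23% higher). No overlap between the lines was seen for 5 of the 8 genes, 4 lower and 1 higher, against 63.4% of all tested genes (31.3% lower and 32.1% higher). The 8 genes had a median log2 fold change of -0.31, all tested genes one of -0.01, and the median absolute value was 0.37 against 0.36.

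**Figure D1:**
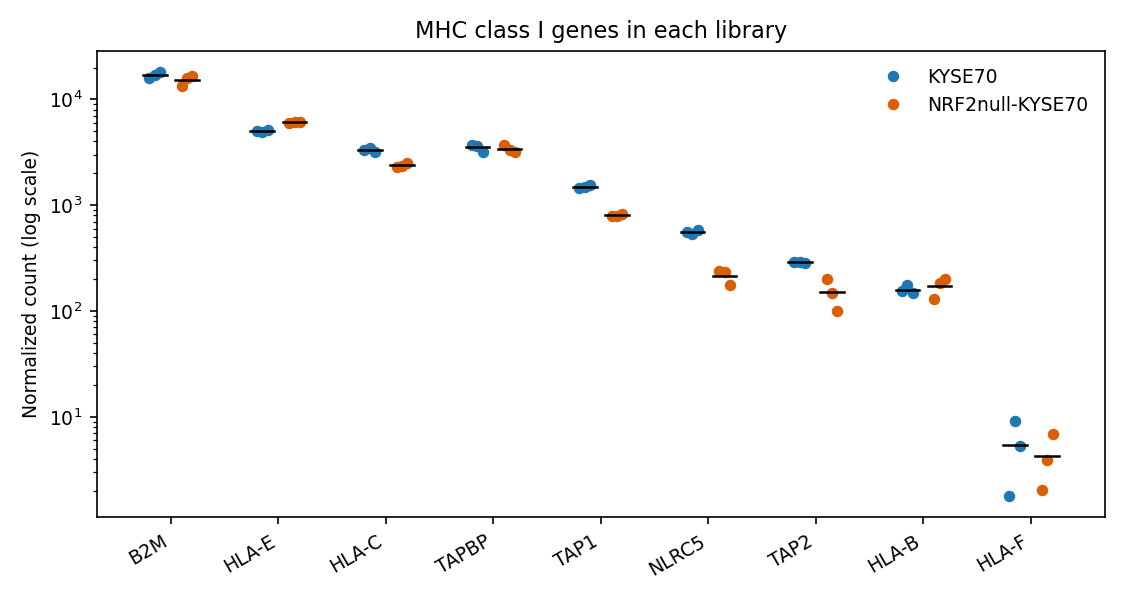
Normalized count (log scale) of each of the 9 genes in the 3 KYSE70 libraries (blue) and the 3 NRF2null-KYSE70 libraries (orange), with black bars for the mean of each line. The 2 lines do not overlap for HLA-E, HLA-C, TAP1, NLRC5 and TAP2, and HLA-F stays under 10 in every library.

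The heavy chain genes differed widely in level. HLA-C presents peptides to T cells and is the main ligand of killer-cell immunoglobulin-like receptors, and HLA-E carries leader peptides of other class I chains to the inhibitory receptor NKG2A on natural killer cells. HLA-C (ENSG00000204525, chromosome 6, 31268749 to 31272130, hg38) had 3302, 3455 and 3169 normalized counts in the KYSE70 libraries and 2309.5, 2334 and 2493 in the NRF2null-KYSE70 libraries. Every NRF2null-KYSE70 library was below every KYSE70 library. The mean fell from 3309 ± 143 to 2379 ± 99.8 (SD, n = 3 each), or by 0.48 on the log2 scale (SE 0.058, limma adjusted p = 1.45e-05). HLA-E (ENSG00000204592, chromosome 6, 30489509 to 30494194) had 5071, 4935 and 5183 normalized counts in KYSE70 and 6026, 6134 and 6149 in NRF2null-KYSE70. Here every NRF2null-KYSE70 library was the higher. The mean rose from 5063 ± 124 to 6103 ± 67.0 (SD, n = 3 each), or 1.21-fold (log2 fold change 0.27, SE 0.046, limma adjusted p = 0.000262).

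HLA-B, the heavy chain gene with the most known alleles, did not pass the test. HLA-B (ENSG00000234745, chromosome 6, 31353872 to 31367067) had 154, 178 and 147 normalized counts in KYSE70 and 129, 184 and 201 in NRF2null-KYSE70, so the lines overlapped. Its log2 fold change was 0.08 (95% confidence interval -0.33 to 0.50, limma adjusted p = 0.733), an interval that includes the value of HLA-E and leaves out that of HLA-C. HLA-F (ENSG00000204642, chromosome 6, 29722775 to 29738528), a non-classical chain, was listed at 1.78, 9.07 and 5.27 in KYSE70 and at 2.03, 3.92 and 6.85 in NRF2null-KYSE70. These values stand for 2 to 10 reads per library, 29 in all, and the gene was not tested. A difference in HLA-F was not detectable at this depth.

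Levels were compared between genes per kilobase of the canonical transcript. In KYSE70 the order was B2M, HLA-C, HLA-E, TAPBP, TAP1, HLA-B, NLRC5, TAP2 and HLA-F. B2M stood at 18073 ± 1167 normalized counts per kilobase (SD, n = 3), HLA-C at 2146 ± 92.9, HLA-E at 1987 ± 48.8 and HLA-B at 104 ± 10.6. Each neighbour in this order was apart from the next in every library of the line. In NRF2null-KYSE70, HLA-E at 2395 ± 26.3 came before HLA-C at 1543 ± 64.7 normalized counts per kilobase (SD, n = 3), and the other ranks were the same. There NLRC5 (26.1 to 34.9 normalized counts per kilobase) and TAP2 (17.8 to 35.6) overlapped. Reads that TAP2 has in common with a gene spanning it, described below, may have been lost in counting, which was not tested. HLA-C amounted to 65.4% ± 4.45 of HLA-E in the parental line and 39.0% ± 1.37 in NRF2null-KYSE70 (SD, n = 3 each), by normalized counts within a library. The exact two-sided permutation test gave p = 0.1, the smallest that 3 against 3 libraries allow, and 0.14 adjusted over the 7 ratios computed. HLA-B and HLA-C, which code for chains of the same class, thus lay far apart in level in both lines. Class I heavy chain genes differ between people, and the table does not record which alleles KYSE70 carries, so these are levels of reads assigned to the reference genes.

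The sequence in common between the heavy chain genes was examined because reads of near-identical genes may be split or lost in counting. Of windows of 100 bases along the canonical transcript, 0 of 1437 of HLA-B, 4 of 1443 of HLA-C and 0 of 1381 of HLA-F occurred in a transcript of another gene. For HLA-E it was 15 of 2449, all in common with HLA-G. HLA-G itself was listed between 4.22 and 10.9 normalized counts and was not tested.

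The promoters of HLA-B and HLA-C are shown because these genes lay far apart in level. The 250 bases before each start (RefSeq, GRCh38.p14, minus strand) are at chr6:31357180-31357429 for HLA-B and chr6:31272093-31272342 for HLA-C, written 5′ to 3′ with motif matches in capitals.
HLA-B: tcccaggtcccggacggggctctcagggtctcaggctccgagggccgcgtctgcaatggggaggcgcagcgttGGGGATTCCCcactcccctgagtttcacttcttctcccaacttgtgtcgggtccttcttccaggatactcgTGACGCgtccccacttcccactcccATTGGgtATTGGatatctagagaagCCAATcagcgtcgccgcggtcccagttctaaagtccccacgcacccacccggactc
HLA-C: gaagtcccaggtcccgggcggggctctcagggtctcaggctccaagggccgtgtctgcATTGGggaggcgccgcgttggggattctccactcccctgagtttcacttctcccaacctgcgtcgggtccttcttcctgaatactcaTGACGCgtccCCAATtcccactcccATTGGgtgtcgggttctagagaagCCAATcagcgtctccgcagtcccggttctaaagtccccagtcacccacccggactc
The motifs searched on both strands were an interferon-stimulated response element core (GAAA, any 2 bases, GAAA), an NF-kappaB-type element (GGG, any 2 bases, TTCCC), an X2-type cyclic AMP element core (TGACGC), a Y-type CCAAT box (CCAAT) and an antioxidant response element core (TGACNNNGC), the kind of site NRF2 binds. In an alignment of these windows 226 of 254 columns were identical, or 89.0%. TGACGC ended 101 bases before the start in HLA-B and 100 bases before it in HLA-C. Of this pair, HLA-B alone matched the NF-kappaB-type pattern, with GGGGATTCCC where HLA-C reads GGGGATTCTC. Such a match is a description of the letters in the reference and not a site in these cells.

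B2M, the light chain common to all class I molecules, was the most abundant of the genes. B2M (ENSG00000166710, chromosome 15, 44711358 to 44718851) had 15956, 17018 and 18155 normalized counts in KYSE70 and 13508, 16077 and 16534 in NRF2null-KYSE70. The lines overlapped. The log2 fold change was -0.15 (95% confidence interval -0.31 to 0.01, limma adjusted p = 0.0919). This call depended on the processing. The protein-coding genes of its arm, 15q, had a median log2 fold change of 0.33 over 387 genes, and after subtraction of the arm medians B2M stood at -0.48 (limma adjusted p = 0.000121). The 19 tested protein-coding genes within 1 Mb on each side of B2M had a median of 0.15. The B2M difference also passed with quantile normalization (limma adjusted p = 0.00862), with total scaling (0.0188) and without NRF2null-KYSE70 library 3 (0.0388). The median of 6p, which holds the HLA, TAP and TAPBP genes, was 0.00 over 313 genes, and that of 16q, which holds NLRC5, was -0.01 over 248 genes.

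**Figure D2:**
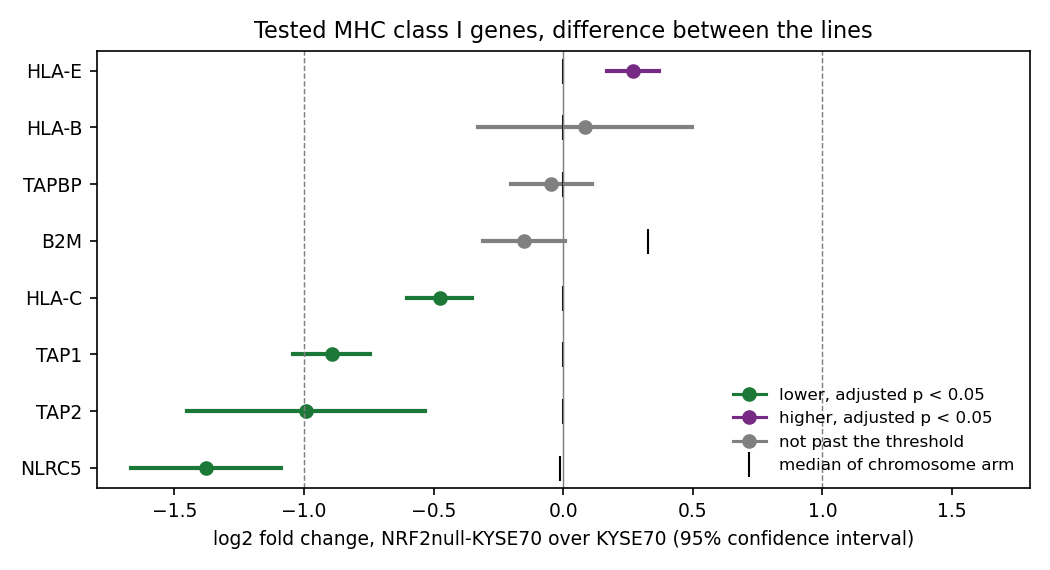
The log2 fold change (NRF2null-KYSE70 over KYSE70) of the 8 tested genes, with limma's 95% confidence interval and, as a black tick, the median of its chromosome arm (green lower, purple higher, grey not passed, dashed lines at -1 and 1). The intervals of NLRC5, TAP2, TAP1 and HLA-C lie below 0 and that of HLA-E above 0, and B2M is the gene whose arm median, 0.33, is away from 0.

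Both chains of the peptide transporter fell. TAP1 (ENSG00000168394, chromosome 6, 32845209 to 32853816) had 1460.3, 1482 and 1542 normalized counts in KYSE70 and 798, 795 and 819 in NRF2null-KYSE70. The libraries of each line were close together and the lines were well apart. The mean fell from 1495 ± 42.1 to 804 ± 12.7 (SD, n = 3 each), or by 0.89 on the log2 scale (SE 0.068, limma adjusted p = 2.11e-07). TAP2 (ENSG00000204267, chromosome 6, 32821833 to 32838739) had 291, 288 and 286 normalized counts in KYSE70 and 201, 149 and 100.46 in NRF2null-KYSE70. All 3 NRF2null-KYSE70 libraries were lower but they differed among themselves. The mean fell from 288 ± 2.52 to 150.1 ± 50.2 (SD, n = 3 each), or by 0.99 on the log2 scale (SE 0.211, limma adjusted p = 0.00137). TAP2 lay just short of a log2 fold change of -1, and passed it without NRF2null-KYSE70 library 1 (-1.23) or library 2 (-1.02). A same-strand gene without a symbol (ENSG00000250264) spans TAP2. It held 1924 of the 5544 windows of 100 bases of the TAP2 transcript, and was itself listed at 0 in every library.

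Tapasin holds the transporter and the empty class I molecule together in the loading complex. TAPBP (ENSG00000231925, chromosome 6, 33299694 to 33314284) had 3693, 3627 and 3206 normalized counts in KYSE70 and 3711, 3319 and 3166 in NRF2null-KYSE70. The lines overlapped, with a log2 fold change of -0.05 (95% confidence interval -0.20 to 0.11, limma adjusted p = 0.606). The interval left out changes of the size seen for either transporter gene.

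NLRC5 had the largest difference of the 8 tested genes. The protein acts with RFX, CREB/ATF and NF-Y factors at the promoters of class I genes, B2M and TAP1 and does not itself read the DNA sequence. NLRC5 (ENSG00000140853, chromosome 16, 56989485 to 57083531) had 557, 531 and 582 normalized counts in KYSE70 and 236, 232 and 177 in NRF2null-KYSE70. The lines did not overlap. The mean fell from 556 ± 25.7 to 215 ± 33.2 (SD, n = 3 each), or by 1.38 on the log2 scale (SE 0.133, limma adjusted p = 1.81e-06). The 29 tested protein-coding genes within 1 Mb on each side had a median log2 fold change of 0.09. Of these, 7 were lower and 11 higher at an adjusted p under 0.05, against 28.3% and 29.3% of all tested genes.

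TAP1 lies head to head with PSMB9, which codes for an inducible catalytic subunit of the immunoproteasome, the form of the proteasome that favours peptides fit for class I. Their starts are 488 bases apart in RefSeq. PSMB9 (ENSG00000240065, chromosome 6, 32844136 to 32859851) had 321, 385 and 469 normalized counts in KYSE70 and 55.8, 59.8 and 75.3 in NRF2null-KYSE70. It fell 6.15-fold, a larger change than that of any of the 8 tested class I genes (log2 fold change -2.60, SE 0.190, limma adjusted p = 1.36e-07). PSMB9 amounted to between 21.99% and 30.4% of TAP1 in KYSE70 and between 6.99% and 9.21% in NRF2null-KYSE70, by normalized counts within a library. The log2 ratio of PSMB9 to TAP1 thus differed by -1.70 (SE 0.179, exact two-sided permutation p = 0.1, the smallest that 3 against 3 libraries allow, 0.14 adjusted over the 7 ratios). Relative to PSMB6, the constitutive subunit whose place it takes, PSMB9 stood at 4.85% ± 0.760 and 0.956% ± 0.127 (SD, n = 3 per line), with no overlap and the same exact permutation p. PSMB8, the neighbouring inducible subunit, was counted at 13.6 to 30.6 in KYSE70 and 1.96 to 9.13 in NRF2null-KYSE70 (log2 fold change -1.87, SE 0.607, limma adjusted p = 0.0185), and its call was lost without KYSE70 library 1 or 3 or NRF2null-KYSE70 library 2. PSMB10, the remaining inducible subunit, fell to 80.3% (limma adjusted p = 0.0396), a call lost when any 1 library was left out, with no filter and with quantile normalization. Relative to PSMB7, PSMB10 overlapped between the lines (exact two-sided permutation p = 0.3, 0.35 adjusted over the 7 ratios). PSMB7 itself fell to 77.1% (limma adjusted p = 9.59e-06) and PSMB6 to 82.6% (limma adjusted p = 0.000326), so a ratio leaves out a fall common to both genes. TAP2 amounted to 19.3% ± 0.703 of TAP1 in the parental line and 18.7% ± 6.44 in NRF2null-KYSE70 (SD, n = 3 each), and the lines overlapped (exact two-sided permutation p = 0.8).

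These genes overlap in the annotation. The widest PSMB9 gene model spans the 8608 bases of TAP1 on the opposite strand, and PSMB8-AS1, an antisense RNA, overlaps TAP1 by 1292 bases, PSMB8 by 602 and PSMB9 by 2365. PSMB8-AS1 had 48.1 to 55.1 normalized counts in KYSE70 and 6.85 to 14.2 in NRF2null-KYSE70, and it fell by 2.35 on the log2 scale (limma adjusted p = 0.000244). Whether counting used the strand is not given in the sources used here, so reads within the overlaps cannot be told apart. The 48 tested protein-coding genes within 1 Mb on each side of TAP1 lay at -0.10 in the median of their log2 fold changes. Of these, 13 were lower and 11 higher, against 28.3% and 29.3% of all tested genes.

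The promoters of the loading genes are shown because TAP1, TAP2 and PSMB9 fell whereas B2M and TAPBP did not pass the test. They are the 250 bases before the RefSeq start (GRCh38.p14), at chr6:32853705-32853954 (minus strand) for TAP1, chr6:32853942-32854191 (plus strand) for PSMB9, chr6:32838740-32838989 (minus strand) for TAP2, chr6:33314079-33314328 (minus strand) for TAPBP and chr15:44711267-44711516 (plus strand) for B2M, written 5′ to 3′ with matches to the motifs named above in capitals.
TAP1: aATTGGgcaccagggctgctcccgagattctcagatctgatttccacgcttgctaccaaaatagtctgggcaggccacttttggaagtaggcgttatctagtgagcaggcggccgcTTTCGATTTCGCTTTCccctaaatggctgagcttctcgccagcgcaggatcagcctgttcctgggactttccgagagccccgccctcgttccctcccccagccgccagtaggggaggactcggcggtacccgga
PSMB9: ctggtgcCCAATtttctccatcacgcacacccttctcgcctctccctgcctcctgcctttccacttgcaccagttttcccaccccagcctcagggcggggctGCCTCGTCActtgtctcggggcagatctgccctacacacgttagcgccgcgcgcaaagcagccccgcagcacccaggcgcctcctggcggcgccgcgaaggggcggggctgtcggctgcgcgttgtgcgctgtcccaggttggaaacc
TAP2: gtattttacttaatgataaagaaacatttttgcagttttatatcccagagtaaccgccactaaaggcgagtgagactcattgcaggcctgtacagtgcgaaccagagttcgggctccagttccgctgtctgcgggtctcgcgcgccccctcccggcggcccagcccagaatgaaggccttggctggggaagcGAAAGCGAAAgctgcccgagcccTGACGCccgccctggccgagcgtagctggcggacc
TAPBP: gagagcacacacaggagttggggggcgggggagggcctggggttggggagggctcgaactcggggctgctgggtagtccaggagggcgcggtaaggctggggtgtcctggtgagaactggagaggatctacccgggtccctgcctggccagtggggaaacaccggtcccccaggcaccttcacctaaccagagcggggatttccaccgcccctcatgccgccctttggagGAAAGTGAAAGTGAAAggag
B2M: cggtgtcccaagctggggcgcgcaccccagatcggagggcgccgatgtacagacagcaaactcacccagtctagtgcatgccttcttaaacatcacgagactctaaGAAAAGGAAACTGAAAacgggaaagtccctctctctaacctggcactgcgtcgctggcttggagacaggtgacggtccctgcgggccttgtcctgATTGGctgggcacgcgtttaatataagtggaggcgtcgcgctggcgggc
The windows of TAP1 and PSMB9 have 13 bases in common. The interferon-stimulated response element core was matched in 5 of the 7 genes with an entry, HLA-F, B2M, TAP1, TAP2 and TAPBP, and in 3.02% of 35116 promoter windows of the same length. The matches include TAP1 and TAP2, which fell, and B2M and TAPBP, which did not pass the test in the main setting. Whether the element bears on these differences was not tested. TGACGC was matched in HLA-B, HLA-C and TAP2 (7.67% of windows), the CCAAT box in HLA-B, HLA-C, HLA-F, B2M and TAP1 (32.0%), and the NF-kappaB-type element in HLA-B (1.97%). The antioxidant response element core, found in 10.9% of windows, was matched in 0 of the 7 class I genes, and once in PSMB9, as GCCTCGTCA. Each motif was searched as a fixed pattern, and near matches were not counted. The absence of a pattern from a window therefore says nothing of binding by NRF2 or by another factor. HLA-E and NLRC5 had no entry.

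The wider pathway was described by gene lists. Of 17 genes of peptide generation, all tested, 11 were lower, 3 higher and 3 did not pass the test, against 28.3% lower and 29.3% higher over all genes. The median log2 fold change was -0.22, and PSMB9 and PSMB8 alone passed both thresholds. The count of lower genes was 7, 7 and 6 without KYSE70 library 1, 2 and 3 respectively. PSME2, which codes for a subunit of the PA28 proteasome activator, fell to 73.2% (log2 fold change -0.45, limma adjusted p = 3.72e-05). ERAP1, a peptidase that trims peptides in the endoplasmic reticulum, had a log2 fold change of 0.06 (95% confidence interval -0.06 to 0.19, limma adjusted p = 0.376). ERAP2, its relative, had -0.69 (limma adjusted p = 0.0392) with overlapping libraries, a call lost in 8 of 18 alternatives, namely with no filter, with quantile normalization, with limma without trend, with edgeR, and without KYSE70 library 2 or 3 or NRF2null-KYSE70 library 1 or 2 (limma or edgeR adjusted p 0.0533 to 0.131). PSME2 was outside the rule for naming genes and was chosen after its values were seen.

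Genes for folding and loading of class I chains were described next. Of 14 genes of assembly and quality control, 9 were higher, 1 was lower and 4 did not pass the test, the median log2 fold change was 0.26, and none passed both thresholds. Over all tested genes 29.3% were higher and 28.3% lower, and 14.7% passed both thresholds. PDIA3, a disulfide isomerase of the loading complex, had 32395, 31347 and 30015 normalized counts in KYSE70 and 59720.2, 55473 and 56656 in NRF2null-KYSE70. It rose 1.83-fold (log2 fold change 0.87, SE 0.049, limma adjusted p = 1.23e-08), and its arm is 15q, with the median of 0.33 given for B2M. CALR, the chaperone calreticulin, rose 1.24-fold (limma adjusted p = 5.02e-05). These chaperones serve many other glycoproteins too. TAPBPL, a tapasin relative that edits peptides, had 20.9 to 36.9 normalized counts in KYSE70 and 9.13 to 26.5 in NRF2null-KYSE70 and did not pass the test (log2 fold change -0.71, limma adjusted p = 0.201).

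**Figure D3:**
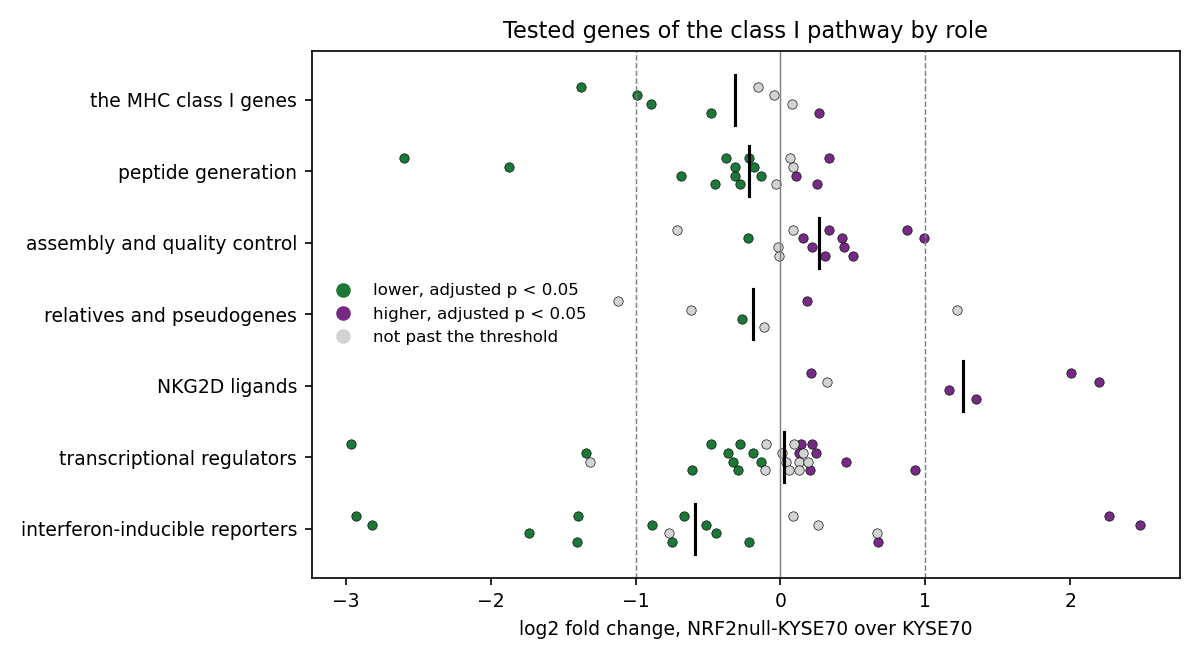
The log2 fold change (NRF2null-KYSE70 over KYSE70) of each tested gene of the class I pathway, 1 point per gene, grouped by role (green lower and purple higher at a limma adjusted p under 0.05, grey not passed), with black bars for list medians and dashed lines at -1 and 1. Peptide generation has 11 of 17 genes lower and assembly has 9 of 14 higher, with PSMB9 the lowest of the former at -2.60. Over all tested genes, 28.3% were lower and 29.3% higher.

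The regulators of class I genes formed a further list. Interferon acts on these genes through the kinases JAK1 and JAK2 and the transcription factor IRF1, and RFX5 is a subunit of the complex that recruits NLRC5. JAK1 had 1788, 1729.8 and 1734 normalized counts in KYSE70 and 209.96, 239 and 223 in NRF2null-KYSE70. It fell 7.82-fold (log2 fold change -2.96, SE 0.088, limma adjusted p = 4.22e-11), the largest change among the 28 regulators. IRF1 normalized counts fell from 1208 ± 52.0 to 791 ± 67.6 (SD, n = 3 each), or by 0.61 on the log2 scale (SE 0.083, limma adjusted p = 3.77e-05). RFX5 rose 1.19-fold (limma adjusted p = 0.000571). SOCS1, an inhibitor of JAK signaling, fell to 37.2% (log2 fold change -1.34, limma adjusted p = 0.00674). The median of its arm, 16p, was -0.49 over 285 genes, and after subtraction of that median SOCS1 stood at -0.85. Of the 28 regulators, 10 were lower, 7 higher and 11 did not pass the test (median log2 fold change 0.02), and JAK1 and SOCS1 alone passed both thresholds. The share called was near the 57.6% of all tested genes and was no result about the regulators.

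**Figure D4:**
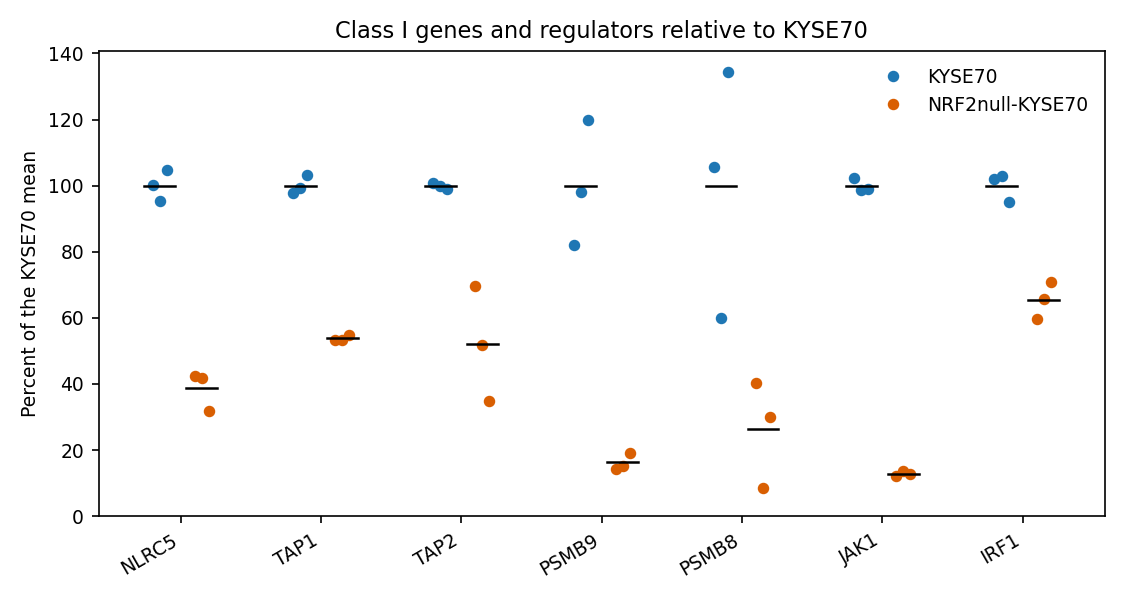
Normalized count in each library as a percent of the KYSE70 mean for NLRC5, TAP1, TAP2, PSMB9, PSMB8, JAK1 and IRF1, with the 3 KYSE70 and the 3 NRF2null-KYSE70 libraries as points and black bars for the means. In NRF2null-KYSE70, JAK1 lies at 12.8% on average, NLRC5 at 38.7% and IRF1 at 65.5%. All genes shown were lower in NRF2null-KYSE70. Of the 28 regulators 10 were lower and 7 higher, and the higher ones are not shown.

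Genes that interferon raises in many cell types were listed apart from the class I genes. Of 23 such genes 18 were tested, 11 were lower and 3 higher, and 4 did not pass the test (median log2 fold change -0.59), against 28.3% lower and 29.3% higher over all tested genes. GBP2, a guanylate-binding protein, fell to 13.2% (log2 fold change -2.93, limma adjusted p = 1.15e-09), and IFI27 fell to 11.3% (-2.82, limma adjusted p = 0.000368). IFI27 rested on few reads, 114 in the KYSE70 libraries together and 12 in the NRF2null-KYSE70 libraries. OAS2 and CXCL9 rose (2.48 and 2.27 on the log2 scale, limma adjusted p = 0.0158 and 0.00362), each from few reads, 12 against 55 and 14 against 76 over the 3 libraries of a line. Of 13 genes of MHC class II, which present peptides to CD4 T cells, 2 were tested and HLA-DQB1 rose from 22.5 ± 12.6 to 58.5 ± 13.05 (SD of normalized counts, n = 3 each, log2 fold change 1.46, limma adjusted p = 0.00774). The summed level of the class II genes was 54.8 to 102.5 in KYSE70 and 101 to 136 in NRF2null-KYSE70.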

How the data were processed

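RNA-seq libraries of KYSE70 and NRF2null-KYSE70 (3 each) were read from 1 table. The deposited values are counts that the authors normalized with DESeq2 size factors, a signal proportional to read counts within a library. Before that, the authors filtered reads by quality (the submitters' processing notes name FastQC and cutadapt), used STAR for alignment to hg38 and featureCounts 1.5.1 for counting per gene. Their methods name a RefSeq annotation, but the table holds Ensembl identifiers. The treatment of strand and of multiply aligned reads is not given in the sources used here. Whole reads were recovered from the steps in each column (100% of values whole within 0.1 read), and 1 read was worth 0.889 to 1.14 normalized counts. The 6 columns name the line but no replicate, so libraries are numbered by column order.

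Genes with a mean of at least 10 were tested on log2(value + 1) with limma 3.58.1 (trend, R 4.3.3) over both lines, without covariates, and adjusted by the Benjamini-Hochberg method. Passing both thresholds required a log2 fold change of 1 or more in size and an adjusted p under 0.05. The test was tried on simulated data first. Alternatives were other pseudocounts, filters and scalings, limma without trend or robust, DESeq2 1.42.0 and edgeR 4.0.16 on the recovered reads, leaving out each library, and subtraction of chromosome arm medians. Named genes were the 9 class I genes, genes overlapping them, 12 genes with a direct molecular tie, and up to 4 genes of each list past both thresholds. The genes and lists were chosen with earlier results of these data known. Gene coordinates come from the GENCODE annotation of hg38 and promoters from RefSeq. Other genes of the class I region are not analysed here, and 1 gene that this rule names is not reported here.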

Additional observations from a re-analysis of the deposited data

How the results depend on the processing

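Over 18 alternatives, HLA-C (-0.55 to -0.44), TAP1 (-0.97 to -0.87), TAP2 (-1.23 to -0.73), NLRC5 (-1.45 to -1.24), HLA-E (0.19 to 0.29) and PSMB9 (-2.73 to -2.46) kept their direction and an adjusted p under 0.05, and 5 to 6 of the class I genes passed that test. The count past both thresholds, 1 in the main setting, was 2 with TMM scaling, 2 with total scaling, and 1 to 2 when 1 library was left out, because TAP2 joined NLRC5. B2M passed the test in 4 alternatives: quantile normalization (-0.29), total scaling (-0.23), without NRF2null-KYSE70 library 3 (-0.21) and arm-centring (-0.48). Without that library HLA-B reversed to -0.044 and TAPBP to 0.0034 (ranges with 1 library left out -0.044 to 0.28 and -0.11 to 0.0034), and ERAP1 reversed to -0.012 with total scaling and to -0.054 with arm-centring, none of them past the test in any of these settings (cause not tested). The count of all genes past both thresholds was 2344 and fell to 1511 with a filter at a mean of 50, by which fewer genes were tested. Total scaling moved the median of all genes by -0.075 on the log2 scale. No paired analysis was possible because replicate numbers are absent from the column names. Depth limited HLA-F (29 reads) and PSMB8 (88 reads).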

Other observations

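Ligands of NKG2D, the activating receptor by which natural killer cells and CD8 T cells detect stressed cells, are relatives of class I heavy chains that carry no peptide. Of 8 such genes 6 were tested. In NRF2null-KYSE70, 5 were higher against 29.3% of all tested genes, none was lower against 28.3%, and 4 passed both thresholds upward against 7.23%. ULBP1 had 265, 269 and 258 normalized counts in KYSE70 and 1341, 1202 and 1119 in NRF2null-KYSE70. It rose 4.62-fold (log2 fold change 2.20, SE 0.097, limma adjusted p = 1.34e-09), with no overlap between the lines. RAET1L rose 4.01-fold (limma adjusted p = 1.21e-08), MICB 2.55-fold (limma adjusted p = 3.43e-08) and ULBP2 2.24-fold (limma adjusted p = 5.83e-05). MICA was at 210.4 to 235 normalized counts in KYSE70 and 235 to 308 in NRF2null-KYSE70 and did not pass the test (limma adjusted p = 0.0712). The surroundings of ULBP1 and RAET1L were higher too. The 13 tested protein-coding genes within 1 Mb on each side of ULBP1 counted 0 lower and 9 higher (median log2 fold change 0.25). The 14 around RAET1L counted 0 lower and 10 higher (0.25). ULBP1 and RAET1L are neighbours (chromosome 6, from 149963943 and from 150018334). Their windows overlap over most of their length and are not separate observations. Both sets include neighbouring NKG2D ligands, and the shares over all tested genes were 28.3% lower and 29.3% higher. The median of 6q, the arm of both genes, was 0.15 over 255 genes. The 63 genes around MICB, on 6p, had a median of -0.07, with 16 lower and 12 higher.

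Of 14 other class I genes, relatives and pseudogenes, 6 were tested. MR1, which presents vitamin B metabolites, rose 1.14-fold (limma adjusted p = 0.0376), and HFE, a regulator of iron uptake, fell to 83.3% (limma adjusted p = 0.0114). The count of higher genes on this list was 0 in 8 of 18 alternatives and that of lower genes in 2.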
